A study of Homo sapiens with 12 samples.

Results

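The transcripts of 10 transcription regulators of the B lineage were followed in REC1, an established cell line from human mantle cell lymphoma: PAX5, EBF1, BCL6, IRF4, IRF8, POU2AF1, POU2F2, SPIB, SPI1 and PRDM1. They were chosen by name, as the rows of the count table whose Ensembl identifier carries one of these symbols, and all 10 were found among the 60483 rows. All 10 also passed the filter on low counts and are among the 14412 genes tested. Cells received the combination of ibrutinib and SPX5551, ibrutinib alone, SPX5551 alone, or DMSO, the solvent control. Each of these 4 treatments was sampled at 4, 8 and 12 h with 1 RNA sequencing library per treatment and time, which makes 12 libraries. Ibrutinib is a covalent inhibitor of BTK, a kinase downstream of the B-cell receptor. SPX5551, called pol5551 in the table headers, is presented by the title of the study as a CXCR4 inhibitor. All libraries come from this single line, and doses were not given in the sources used here.

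The B-cell programme is held in place by a small network of DNA-binding proteins. EBF1 and PAX5 establish B-cell identity and switch on genes of the B-cell receptor complex. SPI1 (PU.1) and SPIB are ETS factors that can bind DNA jointly with IRF4 or IRF8, and POU2AF1 (OBF-1) is the coactivator that joins the octamer-binding factor POU2F2 (OCT2). BCL6 is a repressor of the germinal centre stage. IRF4 and PRDM1 (Blimp-1) drive the passage to plasma cells, and IRF4 transcription is known to answer to B-cell receptor and NF-kappaB signals.

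The libraries held 19336303 to 28934030 counts. There is no second library of any treatment at any time, so the 3 times stand in as replicates of a treatment (n = 3) and the 4 treatments as replicates of a time (n = 4). Replicate numbers go with time, with replicate 1 at 12 h, 2 at 4 h and 3 at 8 h. A difference between times therefore cannot be told apart from a difference between replicates, and the 4 libraries of a time may not be independent. Hence p-values reflect no more than the spread among these 12 samples. The labels conflict on which column belongs to which sample. The headers fit the titles and treatments, but every free-text description points to a column headed with a different treatment of that time. Values below follow the headers, and the other reading is given with the dependence on processing. Libraries also differed in a trend with transcript length. Spearman's rho across genes between a library's deviation and transcript length was -0.398 in the 8 h SPX5551 library and 0.407 in the 8 h ibrutinib library, the lowest and highest of the 12. The 4 B-cell markers CD79A, CD79B, MS4A1 and CD22 summed to between 1980.0 and 2878 CPM (the usual unit of counts scaled to a fixed library total) in every library. Of the mantle cell lymphoma markers, CCND1 (cyclin D1) had 1390 to 1711 CPM and SOX11 had 4.32 to 7.33 CPM, while CD5 was near 0 at 0.0494 to 0.652 CPM. The 6 T-cell markers summed to 6.62 to 10.7 CPM and the 8 myeloid markers to 1.02 to 2.22 CPM, with S100A8 and S100A9 at 0 in every library. The 6 stromal and epithelial markers summed to 23.1 to 58.6 CPM, most of it from PDGFRB, with KRT19 at 0 throughout.

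Promoters of 3 members are shown because EBF1, PRDM1 and SPIB each hold a match to a motif that factors of this network or of NF-kappaB bind, and that of IRF4 because its transcript had the smallest p for a difference between treatments. Each is the 250 bases before the annotated start, from RefSeq (GRCh38.p14), read 5′ to 3′ on the strand of the gene, with matches in capitals. The windows are chr6:391502-391751 on the plus strand for IRF4, chr5:159097957-159098206 on the minus strand for EBF1, chr6:106098691-106098940 on the plus strand for the second listed start of PRDM1, and chr19:50418688-50418937 on the plus strand for SPIB.
IRF4: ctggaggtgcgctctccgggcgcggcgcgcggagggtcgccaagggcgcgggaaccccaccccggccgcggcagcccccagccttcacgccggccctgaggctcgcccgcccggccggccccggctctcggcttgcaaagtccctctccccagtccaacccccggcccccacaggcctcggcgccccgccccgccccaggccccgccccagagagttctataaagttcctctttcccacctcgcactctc
EBF1: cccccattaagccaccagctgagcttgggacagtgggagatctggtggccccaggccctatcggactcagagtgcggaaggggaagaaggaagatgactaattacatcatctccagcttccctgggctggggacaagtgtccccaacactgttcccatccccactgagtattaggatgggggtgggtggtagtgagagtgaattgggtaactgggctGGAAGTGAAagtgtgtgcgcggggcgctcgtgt
PRDM1: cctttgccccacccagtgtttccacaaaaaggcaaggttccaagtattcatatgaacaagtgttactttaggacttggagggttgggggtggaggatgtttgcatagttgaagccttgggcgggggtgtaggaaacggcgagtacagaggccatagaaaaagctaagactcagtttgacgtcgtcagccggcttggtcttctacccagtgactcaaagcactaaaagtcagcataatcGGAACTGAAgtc
SPIB: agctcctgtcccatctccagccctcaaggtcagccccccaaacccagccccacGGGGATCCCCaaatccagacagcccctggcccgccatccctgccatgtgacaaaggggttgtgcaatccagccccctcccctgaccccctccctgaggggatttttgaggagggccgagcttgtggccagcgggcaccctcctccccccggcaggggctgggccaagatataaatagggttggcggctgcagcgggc
Both strands were searched for the octamer ATTTGCAT, the PU box GAGGAAGT, the composite ETS-IRF element GGAANNGAA and the kappaB consensus, in the 8 members that have a promoter in the table (BCL6, EBF1, IRF4, PRDM1, PAX5, IRF8, POU2F2 and SPIB). The ETS-IRF element was present in EBF1 at positions -33 to -25 from the start and in PRDM1 at -12 to -4. That is in 2 of 8 members, and in 6.58% of the 35116 promoters searched. BCL6, PRDM1 and IRF8 each have a further listed start that was also searched, so members and promoters are different units. The kappaB consensus was present in SPIB at -197 to -188, where it reads the same on both strands, and in 9.96% of all promoters. No member had the octamer, which 1.63% of all promoters hold, or the PU box, which 2.17% hold. The IRF4 window held none of the 4 motifs and was 76% G and C, against a median of 58% over all promoters. No matched motif overlapped another. These matches describe the letters of the windows and are not evidence of binding.

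Per kilobase of annotated exon, SPIB was the most abundant member and PRDM1 the least. Averaged over the 12 libraries, levels were 66.8 ± 8.66 CPM per kb for SPIB and 50.3 ± 15.4 CPM per kb for PAX5 (SD, n = 12). POU2F2 followed at 39.5 ± 8.33, POU2AF1 at 27.9 ± 8.82, SPI1 at 27.6 ± 7.09, IRF8 at 18.7 ± 4.24 and IRF4 at 16.7 ± 5.48 CPM per kb. EBF1 reached 6.61 ± 1.28, BCL6 2.65 ± 0.95 and PRDM1 0.485 ± 0.102 CPM per kb. The order was not firm between all neighbours: SPIB exceeded PAX5 in 9 of 12 libraries, PAX5 exceeded POU2F2 in 8, POU2AF1 exceeded SPI1 in 6 and IRF8 exceeded IRF4 in 8. The steps from SPI1 to IRF8, from IRF4 to EBF1, from EBF1 to BCL6 and from BCL6 to PRDM1 held in all 12, and POU2F2 exceeded POU2AF1 in 11. PRDM1 rested on 35 to 121 counts per library, the fewest of the members, and BCL6 on 178 to 641. Per the annotation, 19.6% of the exonic bases of SPIB are shared with another gene on the same strand, and between 0.857% and 5.36% of those of PAX5, BCL6 and POU2AF1 with genes on the opposite strand. Reads in the SPIB overlap cannot be told apart by strand. For the other 3 genes it is not stated whether counting used strand, so their shared reads are uncertain too.

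**Figure D1:**
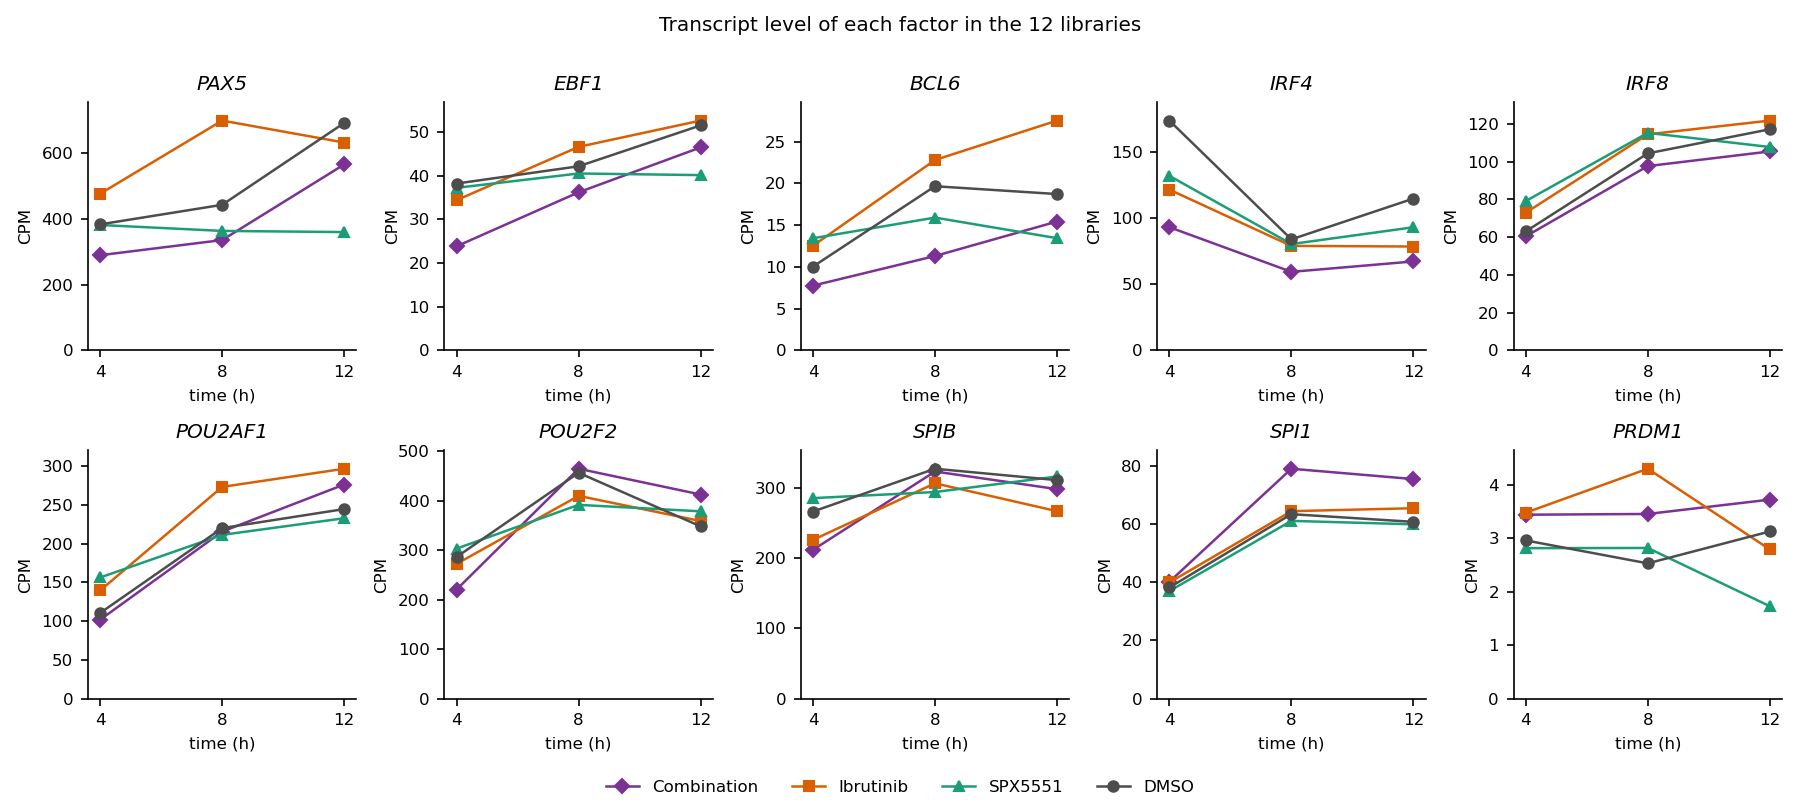
CPM (vertical axis, from 0, its own scale in each panel) against time in hours for each of the 10 factors, with 1 point per library and 1 line per treatment (combination, ibrutinib, SPX5551, DMSO). IRF4 starts high and drops by 8 h in every treatment with the combination lowest at each time. SPI1, POU2AF1 and IRF8 are higher at 8 and 12 h than at 4 h in all 4 treatments.

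More of these genes changed between times than between treatments. Between 4, 8 and 12 h, with treatment taken out, 9 of 10 members changed (edgeR quasi-likelihood F-test, Benjamini-Hochberg adjusted p under 0.05 over 14412 genes), where 42.2% of all genes tested did. The exception was PRDM1 (adjusted p = 0.35, edgeR). At 8 h against 4 h, 7 members rose, namely EBF1, BCL6, IRF8, POU2AF1, POU2F2, SPIB and SPI1, against 13.1% of all genes tested, and IRF4 alone fell, against 13.4%. At 12 h against 4 h, 7 rose (PAX5, EBF1, BCL6, IRF8, POU2AF1, POU2F2 and SPI1), against 18.4% of all genes, and again IRF4 alone fell, against 17.5%. The median log2 fold change over the members was 0.47 at 8 h and 0.45 at 12 h, and over all genes 0.01 and 0.00. Between 12 h and 8 h no member was called by edgeR or by DESeq2, where edgeR called 9.08% of all genes, and 1 member, POU2F2, had an unadjusted p under 0.05.

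Both octamer partners were higher at 8 and 12 h than at 4 h. From 8 to 12 h POU2AF1 was higher and POU2F2 lower in all 4 treatments, and neither was called. POU2AF1 (chromosome 11, 111352252 to 111455630, minus strand, hg38) had 102, 216 and 276 CPM at 4, 8 and 12 h in the combination, 139.6, 273 and 297 CPM with ibrutinib, 156, 211 and 233 CPM with SPX5551, and 111, 220.1 and 245 CPM in DMSO. All 8 later libraries lay above all 4 libraries of 4 h. Its log2 fold change was 0.83 ± 0.10 at 8 h and 0.97 ± 0.10 at 12 h against 4 h (SE; adjusted p = 8.37e-05 and 1.62e-05, edgeR), the largest increase among the members at each time. The gain from 4 to 12 h was 1.30 on the log2 scale in the combination and 1.03 in DMSO, and smallest with SPX5551 at 0.54. POU2F2 (chromosome 19, 42086110 to 42196585, minus strand) had 221, 465 and 413 CPM in the combination, 272, 410.0 and 359 CPM with ibrutinib, 303, 392 and 379 CPM with SPX5551, and 286, 457 and 348 CPM in DMSO. Again no 8 h or 12 h library overlapped those of 4 h, and the highest time was 8 h in every treatment. Its log2 fold change was 0.64 ± 0.10 at 8 h and 0.38 ± 0.10 at 12 h (adjusted p = 3.92e-04 and 0.0076, edgeR). The 12 h call of POU2F2 was lost in 2 of 23 alternatives. With the trend in transcript length and GC content removed per library, its value was 0.23 and did not pass (adjusted p = 0.069, edgeR). This was the highest adjusted p of the 23 alternatives.

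The ETS factors differed in size. SPI1 (chromosome 11, 47354860 to 47378576, minus strand) had 40.2, 79.1 and 75.6 CPM at 4, 8 and 12 h in the combination, 40.0, 64.5 and 65.5 CPM with ibrutinib, 37.0, 61.2 and 60.0 CPM with SPX5551, and 38.2, 63.5 and 60.8 CPM in DMSO. The 4 libraries of 4 h lay within 37.0 to 40.2 CPM, below all later ones. The log2 fold change of SPI1 was 0.75 ± 0.07 at 8 h and 0.66 ± 0.08 at 12 h (adjusted p = 2.40e-05 and 2.46e-05, edgeR). SPIB (chromosome 19, 50418938 to 50431313, plus strand) had 212, 323 and 298 CPM in the combination, 226, 306 and 267 CPM with ibrutinib, 285, 294 and 316 CPM with SPX5551, and 266, 327 and 311 CPM in DMSO. It rose by a log2 fold change of 0.32 ± 0.09 at 8 h (adjusted p = 0.012, edgeR), and the difference of 0.19 at 12 h did not pass (adjusted p = 0.099). The 8 h call of SPIB was lost without the ibrutinib library of 4 h and without the combination library of 4 or 8 h. With SPX5551, SPIB differed by only 0.03 on the log2 scale between 4 and 8 h.

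The interferon regulatory factors moved in opposite directions. IRF8 (chromosome 16, 85898803 to 85922609, plus strand), which acts early in B-cell development and in germinal centre cells, had 60.4, 97.6 and 105 CPM at 4, 8 and 12 h in the combination, 72.9, 114 and 122 CPM with ibrutinib, 79.1, 115 and 108 CPM with SPX5551, and 63.0, 104 and 117 CPM in DMSO. No library of 4 h reached any later library. Its log2 fold change was 0.62 ± 0.07 at 8 h and 0.63 ± 0.07 at 12 h (adjusted p = 7.17e-05 and 3.25e-05, edgeR). IRF4 (chromosome 6, 391739 to 411447, plus strand) had 93.3, 59.5 and 67.4 CPM in the combination, 122, 79.1 and 78.7 CPM with ibrutinib, 132, 80.5 and 93.2 CPM with SPX5551, and 174, 84.1 and 115 CPM in DMSO. The DMSO library of 4 h was the highest of the 12, and the 4 libraries of 8 h all lay below the 4 of 4 h. IRF4 fell by 0.79 ± 0.08 at 8 h and by 0.64 ± 0.08 at 12 h on the log2 scale (adjusted p = 3.31e-05 and 6.70e-05, edgeR). In DMSO the drop from 4 to 8 h was -1.10 on the log2 scale, and in the other 3 treatments it was -0.65 to -0.73.

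The identity factors and BCL6 rose with less uniformity. EBF1 (chromosome 5, 158695916 to 159099761, minus strand) was higher at 8 and at 12 h than at 4 h in all 4 treatments, by 0.08 to 0.83 on the log2 scale at 12 h, lowest with SPX5551 and highest in the combination. Its log2 fold change over treatments was 0.29 ± 0.10 at 8 h and 0.44 ± 0.10 at 12 h (adjusted p = 0.047 and 0.0037, edgeR). The 8 h call of EBF1 was lost in 11 of 23 alternatives, among them the fits without the DMSO, ibrutinib or combination library of 4 h, without any 1 of the 4 libraries of 8 h, and without the DMSO or ibrutinib library of 12 h. BCL6 (chromosome 3, 187721377 to 187745727, minus strand) rose by 0.61 ± 0.14 at 8 h and by 0.68 ± 0.14 at 12 h (adjusted p = 0.0052 and 0.0021, edgeR). The 8 h and the 12 h call of BCL6 were each lost in 1 of 23 alternatives. The 12 h difference of BCL6 was 1.06 with ibrutinib, 0.85 in the combination and 0.78 in DMSO, but -0.03 with SPX5551. PAX5 (chromosome 9, 36833275 to 37034185, minus strand) differed by 0.19 at 8 h (adjusted p = 0.31) and rose by 0.46 ± 0.13 at 12 h (adjusted p = 0.015, edgeR). At 12 h PAX5 was 0.83 above its 4 h value in the combination and 0.73 above it in DMSO, and 0.11 below it with SPX5551. With the length and GC trend removed, its 12 h value was 0.26 (adjusted p = 0.019, edgeR). The 12 h call of PAX5 was lost in 6 of 23 alternatives: with no treatment term, without the DMSO, ibrutinib or combination library of 4 h, and without the DMSO or combination library of 12 h (adjusted p of 0.060 to 0.15, edgeR). PRDM1 (chromosome 6, 106086320 to 106109939, plus strand), the plasma cell repressor, stayed between 1.73 and 4.30 CPM, with log2 differences of 0.01 at 8 h and -0.26 at 12 h that did not pass (adjusted p = 0.96 and 0.28, edgeR).

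**Figure D2:**
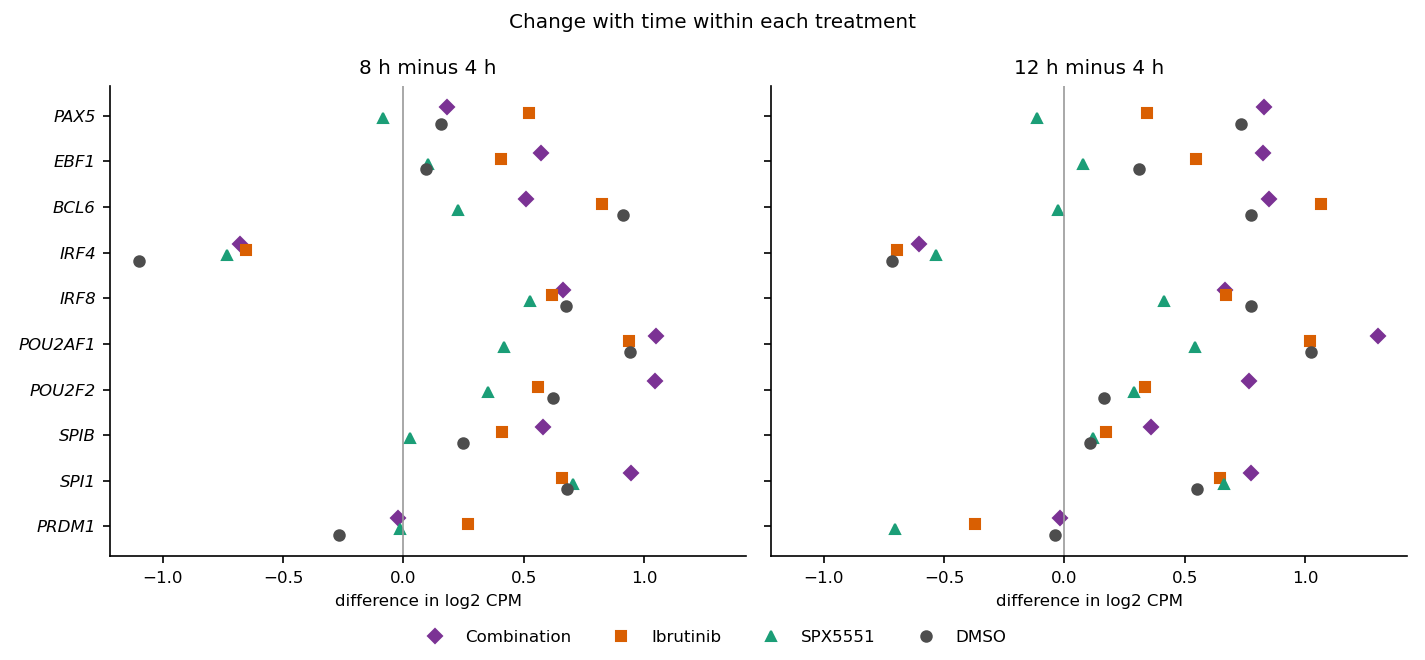
Difference in log2 CPM between 8 h and 4 h (left) and between 12 h and 4 h (right) for each factor, with 1 symbol per treatment. The symbols of POU2AF1, IRF8, SPI1 and POU2F2 lie right of 0 and those of IRF4 left of 0 in all 4 treatments, whereas at 12 h those of PAX5 and BCL6 lie right of 0 except with SPX5551.

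The grid of 4 treatments by 3 times allowed the variation of each member to be split. Time held 92.9% of the sum of squares of log2 CPM for SPI1, 85.1% for POU2AF1, 84.2% for IRF8 and 80.1% for POU2F2, with 2.72% to 12.9% for treatment. Treatment held more than time for PAX5 (55.5% against 21.8%), for BCL6 (44.5% against 40.5%) and for PRDM1 (46.3% against 19.5%). For IRF4 the shares were 40.5% for treatment and 56.2% for time, with 3.33% left over. EBF1 had 37.6% for treatment and 43.6% for time, and SPIB 30.2% and 47.9%. The remainder was largest for PRDM1 (34.3%), PAX5 (22.7%) and SPIB (21.9%). Medians over the members were 33.9% for treatment and 52.1% for time, and over all genes tested 30.5% and 37.1%. This split is a description with no test, and its shares are not scaled for treatment having 4 levels and time 3. In the test of any treatment difference, given below, PRDM1 did not pass (adjusted p = 0.21, edgeR). With library size as the only scaling, time held more than treatment for BCL6 (46.3% against 37.6%).

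**Figure D3:**
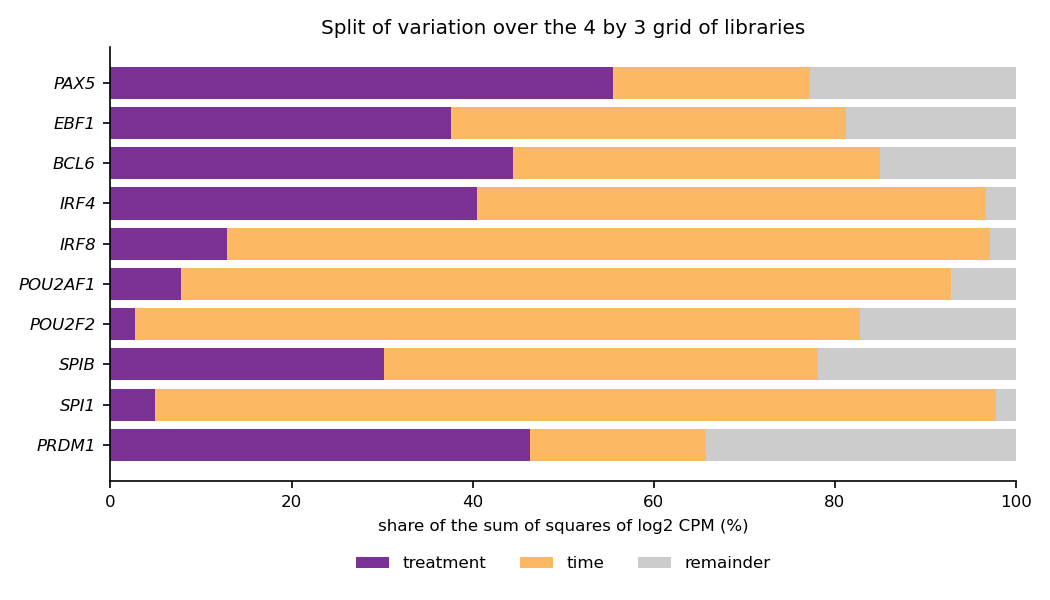
Share of the sum of squares of log2 CPM (%) due to treatment, to time and to the remainder for each factor, over the 12 libraries. SPI1, IRF8, POU2AF1 and POU2F2 are dominated by time, PAX5 by treatment, and IRF4 is split between them with 3.33% left.

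Treatment changed fewer members. Any difference between the 4 treatments, with time taken out, was called for 3 of 10 members, where 12.3% of all genes tested were called: IRF4 (adjusted p = 0.0012), BCL6 (0.016) and PAX5 (0.021, all edgeR). DESeq2 called 5, adding EBF1 and IRF8, and 6 were called with the length and GC trend removed. Leaving out 1 library gave 1 to 5 members and leaving out 1 time 0 to 4: none without 4 h, IRF4 alone without 8 h or without the combination library of 4 h, and 5 without the SPX5551 library of 4 or 12 h. Of all genes tested, 55 were called without 4 h and 132 without 8 h, against 1768 with all libraries. The tests against DMSO below share the 3 DMSO libraries, so they are not independent of each other.

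In the combination against DMSO, 3 of 10 members fell, namely IRF4, BCL6 and EBF1, where 5.41% of all genes tested fell, and none rose, where 4.16% of all genes did. The median log2 fold change was -0.20 over the members and 0.02 over all genes. IRF4 had 93.3, 59.5 and 67.4 CPM in the combination at 4, 8 and 12 h, against 174, 84.1 and 115 CPM in DMSO. It was lower in the combination at each time, and fell by 0.81 ± 0.10 on the log2 scale (SE; 95% confidence interval -1.02 to -0.60; adjusted p = 1.73e-04, edgeR). BCL6 had 7.76, 11.3 and 15.4 CPM in the combination, against 10.0, 19.7 and 18.7 CPM in DMSO, lower at 3 of 3 times, and fell by 0.57 ± 0.16 (adjusted p = 0.041, edgeR). EBF1 had 23.8, 36.2 and 46.5 CPM in the combination, against 38.2, 42.1 and 51.5 CPM in DMSO, also lower at 3 of 3 times, and fell by 0.42 ± 0.12 (adjusted p = 0.034, edgeR). Between times the ranges of these genes overlap, so the differences stand out only when time is taken out. PAX5 had 290.0, 336 and 566 CPM in the combination, against 384, 444 and 693 CPM in DMSO, with a log2 fold change of -0.44 ± 0.15 that did not pass (adjusted p = 0.086, edgeR). SPIB (-0.21) and IRF8 (-0.19) were lower at all 3 times without passing, and SPI1 (0.16), PRDM1 (0.22), POU2F2 (-0.11) and POU2AF1 (-0.06) did not pass either (adjusted p of 0.19 to 0.79 for these 6, edgeR).

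IRF4 was also called in every fit that left out 1 library or 1 time, and without both the SPX5551 library of 12 h and the ibrutinib library of 8 h, which was tried after seeing the data. BCL6 and EBF1 each lost the call in 10 of 25 alternatives, and with columns read by the free-text descriptions all 3 reverse. In 8 of the fits that left out a time or a library, IRF4 was the only member still called. All-gene calls in these fits were below the 1379 with all libraries. They were 278 without 4 h, 302 without 8 h, and 586, 568 and 698 without the DMSO library of 4, 8 or 12 h. They were 853 and 767 without the combination library of 4 or 8 h, and 1121 without the SPX5551 library of 8 h. With the length and GC trend removed, 4 members fell, since PAX5 then passed (-0.43, adjusted p = 0.0066, edgeR). Of all genes tested, 2213 were called in that fit, against 1379 with the trend kept. The adjusted p of PAX5 ranged from 1.99e-04 to 0.94 over 25 alternatives. The small differences of POU2AF1 and SPI1 turned sign, POU2AF1 to 0.02 with library size as the only scaling and SPI1 to -0.03 with the length and GC trend removed. In bulk RNA, fewer cells that express a gene and less RNA per cell cannot be told apart.

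**Figure D4:**
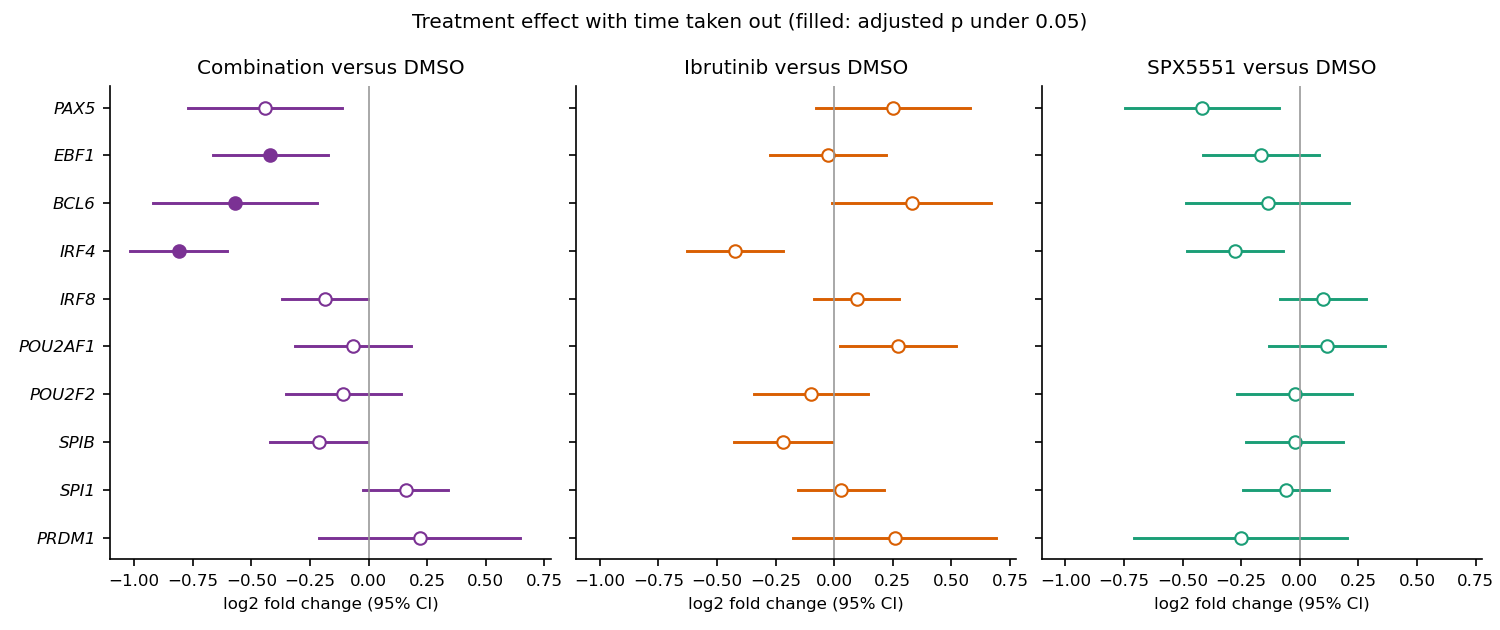
Log2 fold change against DMSO with its 95% confidence interval for each factor in the combination, with ibrutinib and with SPX5551 (edgeR, time taken out), filled where the adjusted p was under 0.05. IRF4 is left of 0 in all 3 panels with its lowest value, -0.81, in the combination, and PAX5 and BCL6 are right of 0 with ibrutinib and left of 0 in the other panels.

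With ibrutinib alone against DMSO, no member was called, where 0.104% of all genes tested were. Of the members, 3 had an unadjusted p under 0.05 (IRF4, POU2AF1 and SPIB), and DESeq2 called 1, IRF4. IRF4 had 122, 79.1 and 78.7 CPM with ibrutinib, against 174, 84.1 and 115 CPM in DMSO, lower at 3 of 3 times, with a log2 fold change of -0.42 (95% confidence interval -0.63 to -0.22; adjusted p = 0.21, edgeR). The 8 h difference of IRF4 was the smallest, at -0.13. With the length and GC trend removed IRF4 passed at -0.51 (adjusted p = 0.0090, edgeR), and without both the SPX5551 library of 12 h and the ibrutinib library of 8 h it passed at -0.51 (adjusted p = 0.011). Over 25 alternatives its adjusted p ranged from 1.73e-04, with columns read by the descriptions and the sign reversed, to 0.99 with no time term. POU2AF1 was higher with ibrutinib by 0.28, 0.27 and 0.27 on the log2 scale at 4, 8 and 12 h, and its log2 fold change of 0.27 did not pass (adjusted p = 0.45, edgeR).

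With SPX5551 alone against DMSO, no member was called, where 0% of all genes tested were, and 1200 genes had an unadjusted p under 0.05. DESeq2 also called no gene, and 2 members, IRF4 and PAX5, had an unadjusted p under 0.05. IRF4 had 132, 80.5 and 93.2 CPM with SPX5551, against 174, 84.1 and 115 CPM in DMSO, a log2 fold change of -0.28 (95% confidence interval -0.48 to -0.07). PAX5 had 382, 364 and 360.5 CPM with SPX5551, against 384, 444 and 693 CPM in DMSO, so the difference was -0.06, -0.31 and -0.91 on the log2 scale at the 3 times. The level of PAX5 changed little over time with SPX5551 and was higher at 12 h than at 4 h in the other 3 treatments. At 12 h the rho of a library with transcript length was -0.381 with SPX5551 and 0.366 in DMSO, and the annotated exons of PAX5 sum to 9333 bases, the longest of the members. The part of the length trend in this difference was not tested on its own, and with the length and GC trend removed the log2 fold change of PAX5 was -0.27 in place of -0.42 (adjusted p = 0.575, edgeR).

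The combination was then set against each agent alone. Against ibrutinib, 3 members fell (BCL6, PAX5 and IRF4), where 3.39% of all genes tested fell. BCL6 had 7.76, 11.3 and 15.4 CPM in the combination, against 12.5, 22.8 and 27.5 CPM with ibrutinib, a log2 fold change of -0.90 ± 0.16 (adjusted p = 0.0091, edgeR). PAX5 had 290.0, 336 and 566 CPM in the combination, against 477, 700.0 and 633 CPM with ibrutinib, a log2 fold change of -0.69 ± 0.16 (adjusted p = 0.022, edgeR). IRF4 fell by 0.39 ± 0.10 (adjusted p = 0.032, edgeR). All 3 were lower in the combination at 3 of 3 times. IRF8, EBF1 and POU2AF1 were lower at all 3 times too, by 0.28, 0.39 and 0.34, without passing (adjusted p of 0.060 to 0.097, edgeR). None of the 3 calls held without 4 h, without 8 h or without the combination library of 8 h. Of all genes tested, only 2, 6 and 107 were called in these fits, against 791 with all libraries. BCL6 alone of the 3 passed without the ibrutinib library of 4 or 8 h or the combination library of 4 h, where 84, 76 and 212 genes were called. IRF4 was lost without the combination library of 12 h, where 642 genes were called. Without both the SPX5551 library of 12 h and the ibrutinib library of 8 h BCL6 and PAX5 passed and IRF4 did not. Against SPX5551, 1 member fell, IRF4, where 3.97% of all genes tested fell. It was lower at 3 of 3 times with a log2 fold change of -0.53 ± 0.10 (adjusted p = 0.0055, edgeR), and the call did not hold without 4 h (-0.54). Of all genes tested, 129 were called against SPX5551 without 4 h, and 1043 with all libraries. Without both the SPX5551 library of 12 h and the ibrutinib library of 8 h, 4 members fell against SPX5551: IRF4 (-0.54), BCL6 (-0.67), IRF8 (-0.38) and EBF1 (-0.40).

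The agents were also taken as exposures, 6 libraries against 6. IRF4 fell with either exposure, and the difference between the 2 exposure effects was not tested. In ibrutinib-exposed libraries (ibrutinib and combination) against unexposed ones, IRF4 alone fell, where 6.58% of all genes tested fell, and no member rose, where 7.14% of all genes did. Its log2 fold change was -0.48 ± 0.07 (adjusted p = 6.92e-04, edgeR). SPIB (-0.20, adjusted p = 0.053) and PRDM1 (0.36, adjusted p = 0.094) did not pass. In SPX5551-exposed libraries (SPX5551 and combination) against unexposed ones, PAX5 fell by 0.56 ± 0.11, BCL6 by 0.52 ± 0.14 and IRF4 by 0.33 ± 0.07 (adjusted p = 0.015, 0.039 and 0.015, edgeR), where 4.89% of all genes tested fell. The BCL6 value averages -0.14 with SPX5551 alone against DMSO (95% confidence interval -0.48 to 0.21) and -0.90 in the combination against ibrutinib. With SPX5551 alone BCL6 was 0.36 above DMSO on the log2 scale at 4 h. None of the 3 calls held without 8 h or without 12 h, where 0 of all genes tested were called in either fit. IRF4 did not pass without 4 h, where 637 of all genes were called, against 1011 with all libraries. BCL6 lost the call in 15 of 24 alternatives. PAX5 did not pass without the DMSO library of 12 h or the combination library of 8 h. Without both the SPX5551 library of 12 h and the ibrutinib library of 8 h PAX5 fell by 0.35 and IRF4 by 0.31, both passing, and BCL6 at -0.40 did not pass (adjusted p = 0.16, edgeR). With the length and GC trend removed PAX5 fell by 0.40, BCL6 by 0.49 and IRF4 by 0.25, and all 3 passed.

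Whether the agents act together beyond their sum on the log2 scale was tested as an interaction. No member passed, where 0% of all genes tested did by edgeR and 2 genes, neither of them a member, did by DESeq2, while 845 genes had an unadjusted p under 0.05. BCL6 (-0.76, 95% confidence interval -1.25 to -0.28), POU2AF1 (-0.46, -0.81 to -0.10) and IRF8 (-0.38, -0.64 to -0.12) were the 3 members with an unadjusted p under 0.05 (adjusted p = 0.77 each, edgeR). For IRF4 the interaction was -0.11, with a 95% confidence interval of -0.40 to 0.18. The effect of ibrutinib exposure was not found to differ between times for any member, where 0% of all genes tested passed by edgeR and 2 genes, neither of them a member, by DESeq2. EBF1 was the 1 member with an unadjusted p under 0.05 there, among 252 genes.

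Genes of the surrounding programme were taken from lists chosen by known role. Their counts are to be read against the shares of all genes tested: 13.1% rose and 13.4% fell at 8 h, 18.4% rose and 17.5% fell at 12 h, 4.16% rose and 5.41% fell in the combination, 7.14% rose and 6.58% fell with ibrutinib exposure, and 4.89% fell with SPX5551 exposure. With SPX5551 exposure 306 of the 14412 genes tested rose. Among 23 tested of 24 other B-cell transcription regulators, 15 rose and 1 fell at 8 h against 4 h, and 15 rose and none fell at 12 h, with medians of 0.33 and 0.43 on the log2 scale. In the combination against DMSO, 1 rose and 6 fell. IKZF3 (Aiolos) had 50.6, 63.3 and 81.0 CPM in the combination at 4, 8 and 12 h, against 88.2, 94.5 and 99.8 CPM in DMSO, and fell by 0.63 ± 0.11 (adjusted p = 0.0019, edgeR). MEF2C, a factor activated downstream of the B-cell receptor, fell by 0.59 ± 0.11, BCL11A, a lymphoid zinc finger protein, by 0.36 ± 0.08, and NFATC1, a calcium-regulated factor, by 0.46 ± 0.11 (adjusted p = 0.0050, 0.012 and 0.017, edgeR). ARID3A rose by 0.29 ± 0.08 (adjusted p = 0.036, edgeR). In ibrutinib-exposed libraries, 2 of the 23 rose, ARID3A and the octamer factor POU2F1, and 3 fell, NFATC1, RUNX3 and IKZF3. In SPX5551-exposed libraries none rose and 3 fell.

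Of 10 tested genes that PAX5 and EBF1 are known to activate, 4 of which also serve as the B-cell markers, 1 fell and none rose in the combination against DMSO (all genes: 5.41% and 4.16%). It was CR2, the complement receptor CD21, with 69.8, 78.4 and 166 CPM in the combination, against 115, 134 and 242 CPM in DMSO, a log2 fold change of -0.75 ± 0.14 (adjusted p = 0.0034, edgeR). No gene of the list passed for ibrutinib exposure, and 1 rose and 1 fell for SPX5551 exposure. At 8 h against 4 h 6 rose and 1 fell (all genes: 13.1% and 13.4%), and at 12 h 6 rose and 1 fell (18.4% and 17.5%). None of the 4 B-cell markers passed in the combination against DMSO (median -0.07).

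Of 12 tested genes that BCL6 is known to repress, none rose and 5 fell in the combination, where BCL6 itself fell (all genes: 4.16% and 5.41%). CCL3, a chemokine, had 2.0, 1.28 and 0.573 CPM in the combination, against 9.23, 4.47 and 6.05 CPM in DMSO, a log2 fold change of -2.42 ± 0.29 (adjusted p = 1.54e-04, edgeR). CD69, an early activation marker, fell by 1.46 ± 0.17, GPR183, a migration receptor, by 0.99 ± 0.13, and CD44, an adhesion receptor, by 0.80 ± 0.10 (adjusted p = 1.29e-04, 2.81e-04 and 3.07e-04, edgeR). Several of these genes are also known to be induced by B-cell receptor signals. With ibrutinib exposure 4 fell and none rose, with CCL3 at -2.33 ± 0.20, CD69 at -1.49 ± 0.12, CD80, a costimulatory ligand, at -0.51 ± 0.10 and CD44 at -0.36 ± 0.09. With SPX5551 exposure 3 fell and none rose. At 8 h against 4 h 2 rose and 5 fell, and at 12 h 5 rose and 4 fell.

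Of 11 tested genes of the plasma cell programme, none rose and 3 fell in the combination, where 4.16% and 5.41% of all genes did: FKBP11 (-0.54 ± 0.12) and DERL3 (-0.63 ± 0.16), which serve the secretory pathway, and XBP1 (-0.35 ± 0.10), its transcription factor (adjusted p = 0.012, 0.024 and 0.037, edgeR). With ibrutinib exposure 4 fell, these 3 and SEC11C of the signal peptidase, and 1 rose, CREB3L2, and with SPX5551 exposure none passed. With time, 2 rose and 3 fell at 8 h, and 4 rose and 2 fell at 12 h. Of 7 tested genes that SPI1, SPIB or IRF8 are known to activate, none passed in the combination. With ibrutinib exposure TLR4 rose by 0.34 ± 0.09 and BCL2A1, an anti-apoptotic protein that NF-kappaB also induces, fell by 0.92 ± 0.21 (adjusted p = 0.025 and 0.013, edgeR), and with SPX5551 exposure none rose and 1 fell. At 8 h 1 rose and 3 fell, and at 12 h 3 rose and 2 fell.

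Markers of other cells were at 8.3 CPM or below except PDGFRB, which had 15.4 to 49.1 CPM. Some moved with the groups. Of the T-cell markers, 1 of 3 tested fell in the combination, TRAC, a T-cell receptor constant chain, which had 0.566, 0.138 and 0.205 CPM in the combination at 4, 8 and 12 h, against 1.61, 0.596 and 0.615 CPM in DMSO. TRAC also fell with ibrutinib exposure (-1.17 ± 0.28, adjusted p = 0.015, edgeR), and with time 1 T-cell marker fell at 8 h, and at 12 h CD3E rose (log2 fold change 0.55, adjusted p = 0.026, edgeR) and TRAC fell (-1.35, adjusted p = 0.0059, edgeR). In the combination and with either exposure no myeloid marker passed, and 1 of 2 tested rose at 8 h and 1, ITGAM (1.57), at 12 h. Of the 4 tested stromal and epithelial markers none passed in the combination, EPCAM fell with ibrutinib exposure (-0.40 ± 0.13, adjusted p = 0.044, edgeR), 1 fell with SPX5551 exposure, and 2 rose at 8 h and 2, PDGFRB (0.79) and KRT8 (0.53), at 12 h. Of the 4 B-cell markers, 3 rose at 8 h against 4 h and 2 at 12 h, alongside the members. The part of these markers in the results was not tested.

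Across the 12 libraries, the transcripts most like each member were found by the root mean square difference of centred log2 CPM. IRF4 was closest to PLEK (pleckstrin) at 0.12 and to CD44 at 0.15, where the median of the genes compared, which had a similar SD over libraries, was 0.73. PAX5 was closest to SETBP1 (0.06) and ARID1B (0.09), EBF1 to BCL2 (0.09) and JADE2 (0.09), and BCL6 to IKZF1 (0.22) and NAV1 (0.23). IRF8 was closest to the kinase BLK and to RASGRP2 (0.09 each), POU2AF1 to TLE3 and DTX1 (0.11 each), and POU2F2 to TNIP1 (0.11) and ZYX (0.12). SPIB was closest to ARRDC2 (0.08) and TBC1D25 (0.09), SPI1 to MIDN (0.08) and HPCAL1 (0.10), and PRDM1 to ATP10D (0.16) and NCOA1 (0.19). These distances are over 12 libraries that share time, treatment and length trend.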

How the data were processed

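RNA was measured in 12 libraries of REC1 cells, 1 for each of 4 treatments at 3 times. Poly(A) RNA was sequenced from a directional kit, per the labels' protocols, although the molecule field of the labels says genomic DNA. BWA and hg38 are named in the submitters' processing notes. Not given in the sources used here were the counting tool, its annotation and strand setting, and the doses. The authors deposited a table of raw counts per Ensembl gene and a table of log2 CPM on fewer genes, whose scaling is not stated.

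Symbols and coordinates came from GENCODE release 29. Each column was assigned by its header, which matches the sample's title. Genes were kept by edgeR's filterByExpr (default minimum count of 10), scaled by TMM and fitted on treatment plus time with the quasi-likelihood F-test of edgeR over all 12 libraries, with Benjamini-Hochberg adjustment over 14412 genes and a threshold of 0.05. A second fit had time, ibrutinib and SPX5551 exposure as terms, and a further fit added ibrutinib by time. Each standard error is the size of the log2 fold change over the root of its F. CPM values use total counts, and log2 CPM a prior count of 2. All libraries of a time share that time's average in the fit, which acts as the block. Tests were checked on simulated counts. Depth of 19336303 to 28934030 counts limits PRDM1 most. Counts per kb divide by the summed length of annotated exons.

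The members and lists were chosen with earlier results of these data known, and 1 listed gene is not reported here. Named list genes are up to 4 per direction with the smallest p among those called in the combination against DMSO or for ibrutinib exposure. The likest genes are the 2 with the smallest root mean square difference of centred log2 CPM, among genes whose log2 CPM averaged 2 or more, with a SD over libraries between 0.8 and 1.2 times that of the member. Alternatives were DESeq2's size factors, library size only, DESeq2, limma-trend on the deposited log2 CPM, no filter, no time or treatment term, only the groups compared, columns by the descriptions, removal of length and GC trends with mgcv, and leaving out each time or library. Tools were R 4.3.3, edgeR 4.0.16, limma 3.58.1, DESeq2 1.42.0 and mgcv 1.9.3.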

Additional observations from a re-analysis of the deposited data

Results flagged for a closer look

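For IRF8 the ibrutinib difference had opposite signs without and with SPX5551 at all 3 times. With ibrutinib alone IRF8 had 72.9, 114 and 122 CPM at 4, 8 and 12 h, against 63.0, 104 and 117 CPM in DMSO, higher at 3 of 3 times, a log2 fold change of 0.10 whose 95% confidence interval of -0.09 to 0.28 spans 0. In the combination it had 60.4, 97.6 and 105 CPM, against 79.1, 115 and 108 CPM with SPX5551 alone, lower at 3 of 3 times. The difference between these effects was -0.381 on the log2 scale (95% confidence interval -0.64 to -0.12), and its test did not pass over all genes (adjusted p = 0.77, edgeR). BCL6 and POU2AF1 had larger differences of the same kind, -0.76 and -0.46 (adjusted p = 0.77 each, edgeR). Their fitted effects also had opposite signs, 0.33 and 0.27 with ibrutinib against DMSO and -0.43 and -0.18 in the combination against SPX5551, but at 12 h both were higher in the combination than with SPX5551.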

How the results depend on the processing

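The rise of IRF8, POU2AF1 and SPI1 and the fall of IRF4 at 8 and 12 h, and the rise of POU2F2 at 8 h and of EBF1 at 12 h, passed in 23 of 23 alternatives. The fall of IRF4 in the combination passed in 23 of 25. With columns read by the descriptions it reversed to 0.53, as did BCL6 (0.43) and EBF1 (0.25), IRF4 against SPX5551 (0.15), IRF4 for ibrutinib exposure (0.48), and BCL6 (0.39), PAX5 (0.14) and IRF4 (0.0545) for SPX5551 exposure. Counts of members called then became 1 in the combination, 3 with ibrutinib, 3 with SPX5551, 0 in the combination against ibrutinib, 3 for the interaction and 0 for SPX5551 exposure. All-gene calls changed with them, to 1043 in the combination (1379 by the headers), 1379 with ibrutinib (15) and 791 with SPX5551 (0). They were 0 in the combination against ibrutinib (791), 973 for the interaction (0) and 0 for SPX5551 exposure (1011). Without the time block, which pairs libraries of a time, 0 members were called in the combination against DMSO, ibrutinib or SPX5551, for any treatment difference and for either exposure. Of all 14412 genes only 27, 0, 5, 16, 29 and 0 were then called in the combination against DMSO, ibrutinib and SPX5551, for any treatment difference, and for ibrutinib and SPX5551 exposure. Without the treatment term 5 were called at 8 h and 5 for any time difference. Of all genes, 2039 and 3158 were then called, against 3832 and 6087 with the term. Library size only gave 1 in the combination against DMSO, where 1633 of all genes were called (1379 with TMM). DESeq2 gave 4 in the combination against DMSO, 5 against ibrutinib and 2 against SPX5551. It gave 1 with ibrutinib alone, 5 for any treatment difference, 2 for ibrutinib exposure and 4 for SPX5551 exposure. Its all-gene calls in that order were 1587, 1211, 1454, 40, 2985, 2369 and 1534. With edgeR they were 1379, 791, 1043, 15, 1768, 1978 and 1011. DESeq2's size factors and limma-trend each gave 2 in the combination against SPX5551 and 2 for ibrutinib exposure. All-gene calls were 1093 and 1969 with the size factors, and 1075 and 1857 with limma-trend. With no filter 1 was called with ibrutinib, 1 with SPX5551, 5 and 2 in the combination against ibrutinib and SPX5551, 1 for the interaction, 5 for any treatment difference and 2 at 12 against 8 h. All-gene calls of that fit, over 32191 genes, were 216, 112, 1404, 1788, 32, 3593 and 2180 in the same order. With length and GC trends removed the counts were 1 with ibrutinib, 5 and 2 in the combination against ibrutinib and SPX5551, 6 for any treatment difference, 1 at 12 against 8 h and 2 for ibrutinib exposure. All-gene calls were then 23, 1204, 1728, 2341, 1594 and 1972 in that order. Without both the SPX5551 library of 12 h and the ibrutinib library of 8 h the counts of members were 1 with ibrutinib, 4 in the combination against SPX5551, 5 for any treatment difference and 3 at 12 against 8 h. All-gene calls there were 42, 1139, 1749 and 4913. Leaving out 1 time or library gave 1 to 4 in the combination against DMSO, 0 to 6 against ibrutinib and 0 to 3 against SPX5551, 0 to 1 with ibrutinib, 0 with SPX5551, 0 to 5 for SPX5551 exposure, 1 to 2 for ibrutinib exposure, 0 to 1 for the interaction, 0 for ibrutinib by time, 0 to 5 for any treatment difference, 0 to 9 for any time difference, 6 to 8 at 8 h, 6 to 9 at 12 h and 0 to 1 at 12 against 8 h. Over these fits, all-gene calls were 278 to 1671 in the combination against DMSO. They were 2 to 1643 against ibrutinib, 129 to 1302 against SPX5551, 0 to 670 with ibrutinib and 0 to 109 for the interaction. For SPX5551 exposure they were 0 to 1807, and for ibrutinib exposure 83 to 2637. Any treatment difference had 55 to 2364, any time difference 209 to 7025, and 12 against 8 h 27 to 3076. All-gene calls were 2421 to 4331 at 8 h against 4 h and 3517 to 5510 at 12 h against 4 h. EBF1 at 8 h lost its call in 11 of 23 alternatives and PAX5 at 12 h in 6. SPIB at 8 h lost it in 4, POU2F2 at 12 h in 2, and BCL6 in 1 at each of 8 and 12 h. The cause was not tested. With 1 library per treatment and time, no difference at a single time was tested.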
